A study of Mus musculus with 6 samples.

Results

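The natriuretic peptide system was described here through 8 genes of known function, looked up by symbol in the 6 tables of expression values. They were the peptide genes Nppa, Nppb and Nppc, the receptor genes Npr1, Npr2 and Npr3, and the processing enzyme genes Corin and Furin. All 8 were found among the 23284 listed genes. The tissue was the whole heart of C57BL/6 mouse embryos at E13.5. The Tfam KO group had both Tfam alleles floxed (Tfam fl/fl) and the Control group had 1 floxed allele (Tfam fl/+). Both groups also carried Nkx2.5IRES-Cre on 1 chromosome (Nkx2.5IRES-Cre/+), which drives recombination in the heart lineage, so the control hearts had the same Cre insertion and a floxed Tfam allele too. Each group had 3 libraries of poly(A) RNA, and each library pooled 5 hearts. Values from separate hearts within a pool cannot be recovered. Tfam encodes a protein that packages mitochondrial DNA and is needed for its transcription, and the comparison asks how heart gene expression differs without it.

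Natriuretic peptides are hormones made as longer precursors. Corin, a membrane protease of cardiomyocytes, cuts the precursor of atrial natriuretic peptide (ANP, from Nppa), and furin, a protease of the secretory pathway, can cut the precursor of B-type natriuretic peptide (BNP, from Nppb). ANP and BNP act on the guanylyl cyclase receptor NPR1, C-type natriuretic peptide (CNP, from Nppc) acts on the related receptor NPR2, and both receptors make cyclic GMP. NPR3 has no cyclase domain and clears all 3 peptides from the surroundings. In the embryonic heart Nppa marks atrial and trabecular muscle, Nppb is a gene of the ventricular muscle, and Npr3 is known as a gene of the endocardium. Both peptide genes are widely used as markers of stressed heart muscle.

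The 3 peptides share a ring closed by a bond between a pair of cysteines. Its 17 codons are shown for Nppb and Nppc, the peptide genes with the larger rise and with almost no reads, because the ring is the part that makes these genes a family. They were taken 5′ to 3′ from the GENCODE vM21 transcripts (build GRCm38), with the codons of both ring cysteines in capitals.
Nppb: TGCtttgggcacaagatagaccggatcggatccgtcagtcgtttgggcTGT
Nppc: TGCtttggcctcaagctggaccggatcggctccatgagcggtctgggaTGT
Nppb and Nppc matched at 40 of these 51 bases. After the ring came 6 more codons in Nppb and 0 in Nppc, so that CNP ends at its second ring cysteine.

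Levels are in FPKM, in which reads are divided by gene length and library size, so that genes can be set against each other. The libraries held 12370092 to 18078620 reads, as recovered from the steps of the values, and the ribosomal precursor Rn45s took 14.95% to 32.49% of them. They did not share a common scale. The log2 fold change (Tfam KO minus Control) had a median over tested genes of 0.28 as deposited. Dividing each library by a size factor (0.828 to 1.33) brought that median to 0.01. Each difference was therefore read on both scales, and a gene is said to have risen or fallen only where it passed the threshold on both. The threshold was a Benjamini-Hochberg adjusted p of 0.05 by limma over the 10807 genes whose mean reached 1 FPKM. On the deposited scale limma took the variance of each gene from all tested genes together and not from its own spread. The very small p-values on that scale therefore do not measure how far the pools differed for a given gene. Tfam itself ranged from 3.97 to 6.22 FPKM in the KO libraries (median 4.77) and from 4.64 to 6.62 FPKM in the controls (median 5.55), which overlapped (log2 fold change -0.15, adjusted p = 0.651). With size factors all KO libraries lay below all controls, but the difference did not pass (-0.42, adjusted p = 0.152). A gene-level value can also hold reads from outside the floxed part and from cells without Cre, so it is a weak check of the labels.

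Of the 8 genes, Nppa and Nppb rose in Tfam KO hearts and the other 6 did not pass the test or were too low to be tested. Nppb was about 3.47 times and Nppa about 2.37 times the control mean with size factors. The receptors Npr1, Npr2 and Npr3 and the proteases Corin and Furin had overlapping groups with size factors and passed on neither scale. Nppc was at or near 0 throughout. On both scales together, 2 of the 7 passed as higher and 0 as lower, where 2.07% of all tested genes were higher and 0.953% lower on both. As deposited the background was 6.21% higher and 1.16% lower, and with size factors 2.07% higher and 2.5% lower. Their median log2 fold change was 0.21 on the deposited scale against 0.28 over all tested genes, and of -0.015 against 0.01 after size factors. At an unadjusted p of 0.05 limma called 2 of the 7 on either scale. The share of all tested genes under that unadjusted p is not given here. Counts at an unadjusted p, here and for the lists below, therefore cannot be read as many or few. Limma-voom, a fit on recovered reads, called 288 genes higher and 454 lower over all genes. Its counts for the lists below were not tested against these totals. In bulk hearts, fewer cells of a type and less RNA per cell cannot be told apart, and the same holds for more cells and more RNA.

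**Figure D1:**
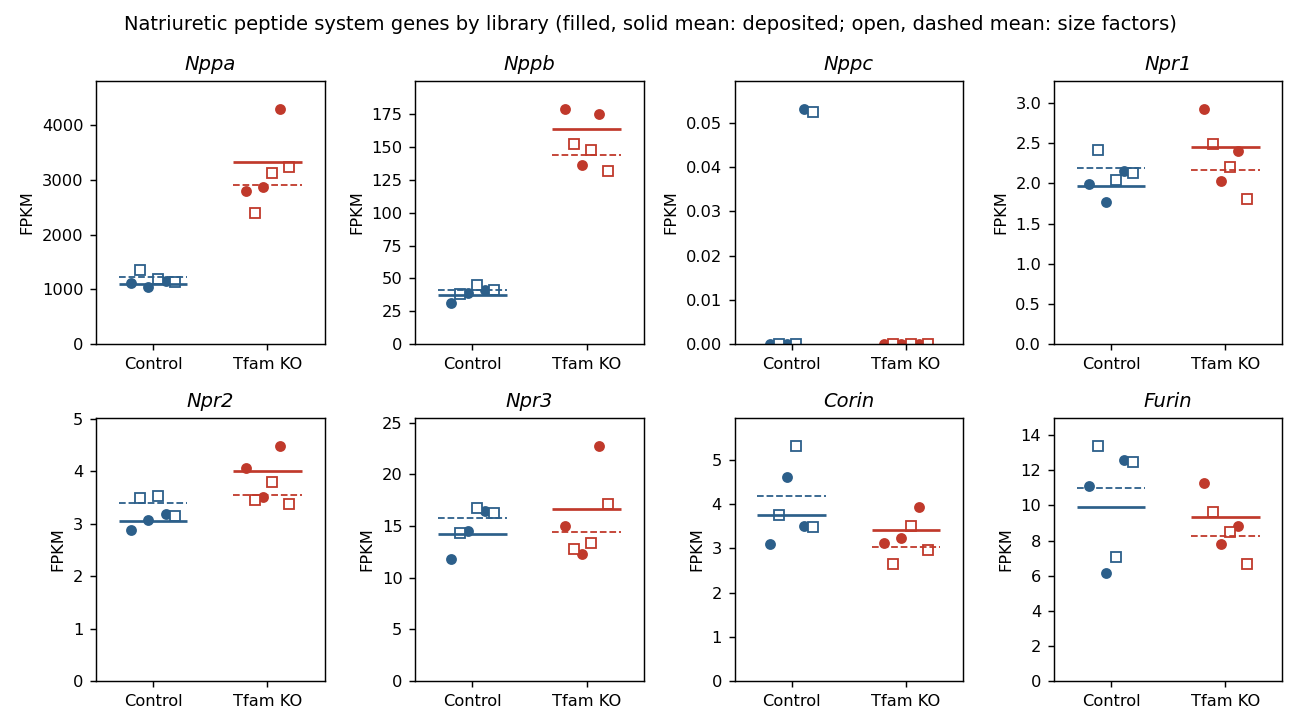
FPKM of the 8 genes in each of the 3 Control and 3 Tfam KO libraries, filled circles as deposited and open squares after division by size factors, with solid and dashed lines for the group means (no means are drawn for Nppc). All KO points of Nppa and Nppb lie above all control points on both scales, and the groups of Npr1, Npr3, Corin and Furin overlap on both.

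Nppa, the ANP gene, was measured at 2803, 2879 and 4294 FPKM in Tfam KO replicates 1, 2 and 3. In Control replicates 1, 2 and 3 it was at 1116, 1036 and 1153 FPKM. Every KO library lay above every control, and the third KO library stood above the other KO libraries. That library also had the largest size factor, and on the size-factor scale its value of 3232 lay close to the 3120 of Tfam KO replicate 2, with replicate 1 at 2392. These values rested on 10628 to 59479 reads per library, so counting error was small beside the spread of the pools.

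The log2 fold change of Nppa was 1.57 (SE 0.20, 95% interval 1.18 to 1.95, limma adjusted p = 5.72e-13) as deposited. With size factors it was 1.24 (SE 0.18, 95% interval 0.84 to 1.64, adjusted p = 0.00312). Nppa was among the most abundant transcripts per length of both groups. It was the 6th gene by FPKM in all 3 KO libraries and stood 11th to 13th in the controls. Its rise was the 64th largest of 10807 with size factors. The call with size factors needed the filter on low values. When all genes above 0 were fitted with size factors, a setting chosen after the data were seen, the adjusted p of Nppa was 0.097 with the same log2 fold change of 1.24. The deposited call also leaned on the filter, since without it the limma adjusted p of Nppa was 0.0485, just under the threshold.

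Nppb, the BNP gene, was at 179, 136 and 175 FPKM in Tfam KO replicates 1, 2 and 3. It was at 31.7, 39.2 and 41.4 FPKM in Control replicates 1, 2 and 3. The lowest KO library was thus more than 3 times the highest control. With size factors the KO libraries drew together, at 152, 148 and 131, against 38.2, 45.1 and 40.95 in the controls. The reads behind these values numbered 344 to 584 in controls and 1467 to 2277 in KO libraries.

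The log2 fold change of Nppb was 2.09 (SE 0.23, 95% interval 1.65 to 2.54, limma adjusted p = 1.30e-17) as deposited and 1.77 (SE 0.12, 95% interval 1.502 to 2.04, adjusted p = 2.77e-05) with size factors. It was the 26th largest rise of the 10807 tested genes on that scale. Nppb moved from between the 638th and 766th place by FPKM in controls to between the 160th and 195th in KO libraries. Groups that do not overlap were common in these data: all KO libraries lay above all controls in 12.5% of tested genes with size factors and in 25.6% as deposited, and below all controls in 11.6% and 2.34%.

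Nppc, the CNP gene, was listed at 0 in all 3 Tfam KO libraries and in Control replicates 1 and 2. Control replicate 3 held a single read, 0.0531 FPKM. For a transcript of 1042 bases, a count of 0 allows up to 3 reads, or 0.172 to 0.233 FPKM in the 5 libraries at 0, counting error only. Nppc was not tested. The receptor for CNP, Npr2, was nonetheless measured in every library.

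**Figure D2:**
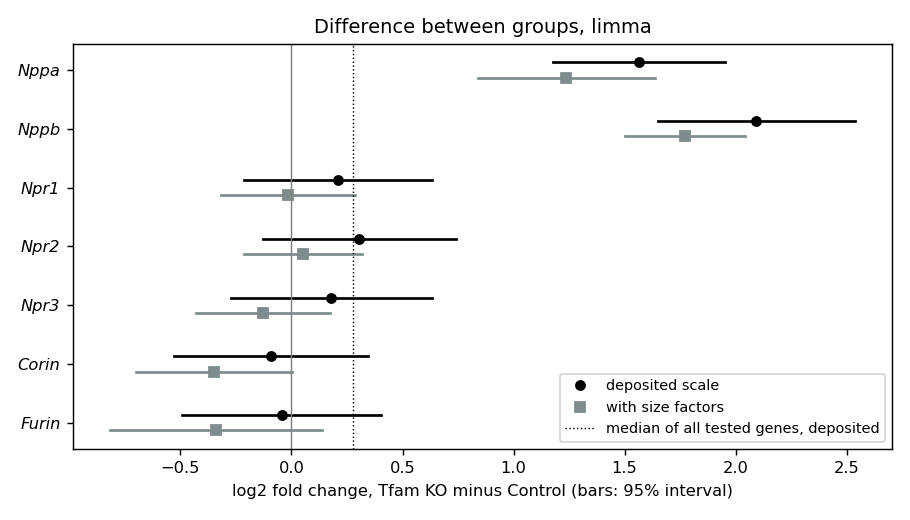
Log2 fold change (Tfam KO minus Control) of the 7 tested genes with 95% intervals, black for the deposited scale and grey for size factors, and a dotted line at the median of all tested genes as deposited. The intervals of Nppa and Nppb lie above 0 on both scales and those of the receptors and proteases include 0.

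The receptor transcripts were far below the peptide transcripts. Npr1, the ANP and BNP receptor, was at 2.92, 2.03 and 2.40 FPKM in Tfam KO replicates 1, 2 and 3. Its control values were 1.995, 1.77 and 2.15 FPKM, and the groups overlapped. The log2 fold change was 0.21 (95% interval -0.21 to 0.63, limma adjusted p = 0.502) as deposited. With size factors it was -0.015 (95% interval -0.32 to 0.29, adjusted p = 0.965), so the direction turned with the scale. Npr1 rested on 89 to 163 reads per library.

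Npr2, the CNP receptor, was at 4.06, 3.51 and 4.49 FPKM in Tfam KO replicates 1, 2 and 3 and at 2.89, 3.07 and 3.18 FPKM in the controls. As deposited all KO values were above all control values, as for 25.6% of genes, but with size factors the groups overlapped. Its log2 fold change was 0.31 (95% interval -0.13 to 0.74, limma adjusted p = 0.342) as deposited and 0.05 (95% interval -0.21 to 0.32, adjusted p = 0.867) with size factors. Its reads ran from 139 to 274 per library.

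Npr3, the clearance receptor, was the most abundant receptor of the 3. It was at 14.997, 12.3 and 22.7 FPKM in Tfam KO replicates 1, 2 and 3. The controls were at 11.8, 14.5 and 16.4 FPKM. Tfam KO replicate 3 was the highest library and the groups overlapped. The log2 fold change was 0.18 (95% interval -0.27 to 0.63, limma adjusted p = 0.587) as deposited and -0.13 (95% interval -0.43 to 0.17, adjusted p = 0.674) with size factors, so its direction depended on the scale too. Without Tfam KO replicate 3 the deposited value was -0.055. With 1141 to 2631 reads per library, counting error was small for Npr3. The intervals on the size-factor scale leave out a change of 1 unit in the fitted log2(FPKM + 1) values of any of the 3 receptors. In these values a doubling or halving of a gene as low as Npr1 or Npr2 is less than 1 unit. The intervals do not show that the receptors were unchanged.

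Corin, the protease that cuts the ANP precursor, was at 3.11, 3.23 and 3.93 FPKM in Tfam KO replicates 1, 2 and 3. In the controls it was at 3.10, 4.62 and 3.51 FPKM, with replicate 2 the highest. Its log2 fold change was -0.09 (95% interval -0.53 to 0.34, limma adjusted p = 0.777) as deposited and -0.35 (95% interval -0.70 to 0.0044, adjusted p = 0.264) with size factors. By limma-voom it was -0.44 (95% interval -0.82 to -0.051, adjusted p = 0.178). Neither a rise nor a fall of Corin passed the test. Without Control replicate 2 the size-factor value was -0.20 (adjusted p = 0.531). Its reads ran from 190 to 319 per library.

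Furin was at 11.3, 7.82 and 8.85 FPKM in Tfam KO replicates 1, 2 and 3. The control libraries varied more, at 11.1, 6.13 and 12.6 FPKM. Control replicate 2 was low and the other controls were near or above the highest KO library. With size factors the coefficient of variation of Furin was 31.2% in controls, the widest of the 7 tested genes, against 6.35% for Npr2. Its log2 fold change was -0.04 (95% interval -0.49 to 0.41, limma adjusted p = 0.898) as deposited and -0.34 (95% interval -0.82 to 0.14, adjusted p = 0.437) with size factors. Without Control replicate 2 the size-factor value was -0.60 (adjusted p = 0.0694).

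In controls the order of the mean levels per length was Nppa (1102 ± 59.8 FPKM, SD, n = 3), Nppb (37.4 ± 5.11), Npr3 (14.3 ± 2.32), Furin (9.94 ± 3.38), Corin (3.75 ± 0.787), Npr2 (3.05 ± 0.148), Npr1 (1.97 ± 0.191) and Nppc. The ranges of Npr3 and Furin overlapped, as did those of Corin and Npr2, and the other neighbours in this order did not overlap. In Tfam KO hearts the order of the means was Nppa (3325 ± 839 FPKM), Nppb (163 ± 23.4), Npr3 (16.7 ± 5.42), Furin (9.32 ± 1.78), Npr2 (4.02 ± 0.491), Corin (3.42 ± 0.439), Npr1 (2.45 ± 0.448) and Nppc. Npr2 and Corin overlapped there and changed places, and the ranges of the other neighbours did not overlap.

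Ratios taken within a library do not depend on its scale. The ratio of Nppa to Nppb was lower in the Tfam KO libraries, but the difference did not pass the test. The Nppa level was 15.7 to 24.6 times that of Nppb in KO libraries and 26.5 to 35.3 times in controls. All KO ratios lay below all control ratios, a difference of -0.56 on the log2 scale. An exact two-sided permutation test of 3 against 3 libraries gave p = 0.1, the smallest this design allows, and 0.15 adjusted over the 9 ratios computed. Both peptide genes were also set against marker genes of heart muscle. Against the geometric mean of 10 cardiomyocyte markers, Nppa was 2.94-fold and Nppb 4.32-fold higher in KO hearts, with no overlap of groups (exact permutation p = 0.1, adjusted p = 0.15, for each). Against 7 atrial markers the values were 2.70-fold and 3.98-fold, again without overlap (exact permutation p = 0.1, adjusted p = 0.15, for each).

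**Figure D3:**
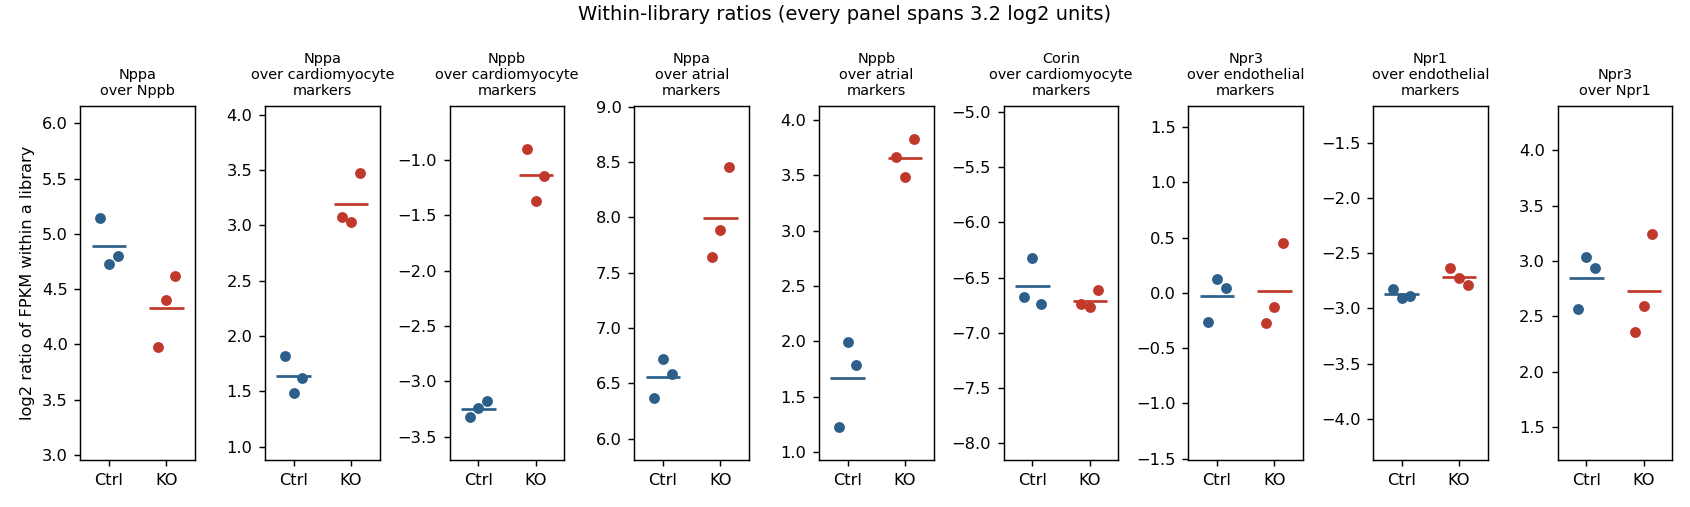
Log2 ratios of FPKM within each library for 9 pairs, blue for Control and red for Tfam KO, with bars at the group means and the same span of 3.2 log2 units in each panel. The KO points of Nppa and Nppb over cardiomyocyte and atrial markers lie above all control points, Nppa over Nppb lies below, and the ratios of Corin and Npr3 overlap.

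The marker lists themselves were as follows. Of the 10 cardiomyocyte markers 0 passed by limma on both scales (1 was lower with size factors, 2 passed by limma-voom, and 1 as deposited and 4 with size factors had an unadjusted p under 0.05), and their summed level was 8518 to 11094 FPKM in KO libraries and 9245 to 11124 in controls. The most abundant, Actc1 (cardiac actin) and Tnnt2 (cardiac troponin T), were at 0.09 and -0.11 in log2 fold change as deposited and at -0.24 and -0.44 with size factors. Of the 8 atrial markers 0 passed by limma on either scale (0 as deposited and 2 with size factors had an unadjusted p under 0.05, and 1 passed by limma-voom). Their sum, mostly that of the light chain gene Myl4, was 1232 to 1872 FPKM in KO libraries and 1485 to 1816 in controls. The atrial light chain gene Myl7 was at 178 ± 77.97 FPKM in KO hearts and 127 ± 26.3 in controls (SD, n = 3). Of 6 ventricular markers, 1 (Myl3, the light chain gene, log2 fold change -0.77 as deposited and -1.10 with size factors) was lower and 0 were higher on both scales, and 4 were lower with size factors. Limma-voom called 5, and 2 as deposited and 5 with size factors had an unadjusted p under 0.05. Their sum was 4697 to 8411 FPKM against 7127 to 7405. It was mostly that of Myl2, at 5823 ± 1908 FPKM in KO hearts and 5644 ± 478 in controls (SD, n = 3). The log2 fold change of Myl2 was -0.011 as deposited and -0.34 with size factors, with no call on either scale. Of 6 trabecular markers, the growth factor gene Bmp10 rose (log2 fold changes 1.07 and 0.76 on the deposited and size-factor scales) and the transcription factor gene Irx3 fell (-0.78 and -1.06). With size factors 3 were lower, Irx3, Cited1 and the gap junction gene Gja5 (-0.95, limma adjusted p = 0.000855, and -0.64, adjusted p = 0.0616, as deposited), and limma-voom called 4. Myl3, Bmp10, Irx3 and Gja5 were named after their values were seen. The trabecular sum was 149 to 244 FPKM against 172 to 215, and its most abundant genes, Smpx and Cited1, had log2 fold changes of -0.023 and -0.34 as deposited and of -0.35 and -0.66 with size factors. None of these lists held a defining marker at 0. Their part in the rise of Nppa and Nppb was not tested beyond the ratios above.

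For Corin over the cardiomyocyte markers the groups overlapped, with a difference of -0.13 on the log2 scale (exact permutation p = 0.5, adjusted p = 0.643). For Npr3 over 10 endothelial and endocardial markers the difference was 0.05, with overlap (exact permutation p = 0.9, adjusted p = 0.9). Npr1 over the same markers was slightly higher in every KO library, by 0.16 on the log2 scale (exact permutation p = 0.1, adjusted p = 0.15). Npr3 over Npr1 was 5.13 to 9.47 in KO libraries and 5.93 to 8.20 in controls (exact permutation p = 0.9, adjusted p = 0.9). Of the endothelial markers 0 passed by limma on both scales (3 on either had an unadjusted p under 0.05, and 1 passed by limma-voom), and their sum was 154 to 205 FPKM in KO libraries and 152 to 181 in controls. By the mean over all 6 libraries the most abundant were the adhesion gene Cdh5, at 0.09 in log2 fold change as deposited and -0.23 with size factors, and Plvap, at -0.53 and -0.84, which passed as lower with size factors. Emcn, an endothelial surface protein gene named after its values were seen, went the other way, at 0.68 as deposited, where limma gave an adjusted p of 0.0475, and at 0.36 after size factors, where it gave 0.131, with all KO libraries above all controls on both scales.

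Other cell types were present in both groups. Of 7 epicardial, 9 mesenchymal, 5 smooth muscle, 6 erythroid and 5 macrophage markers tested, 0 passed by limma on both scales in either direction. As deposited 3 mesenchymal, 1 smooth muscle and 1 macrophage marker were higher, with size factors 2 smooth muscle markers were lower, and limma-voom called 2 smooth muscle markers. At an unadjusted p of 0.05 there were 0, 7, 2, 0 and 1 as deposited, and 0, 3, 3, 1 and 1 with size factors, in that order of cell types. Summed levels were 35.7 to 56.3 FPKM in KO and 31.4 to 43.6 in control libraries for epicardium. For mesenchyme they were 444 to 655 and 282 to 440, for smooth muscle 272 to 335 and 358 to 437, for macrophages 7.33 to 14.03 and 6.75 to 9.22, and for erythroid cells 3090 to 13530 and 5412 to 10545. The erythroid gene Hba-a1 was listed at 0 in every library. Markers of liver, lung and nerve summed to 0.374 to 2.90 FPKM in KO and 2.59 to 7.80 in control libraries, with the lung gene Sftpc at 0. Of these 8 only the liver gene Alb was tested, and it did not pass on both scales. Alb passed the filter on low values only through the controls, so its values are a description and no p is given. Its mean was 0.569 FPKM in KO hearts and 2.09 in controls, and the groups overlapped on both scales. The log2 fold changes of Alb were -1.04 (deposited scale) and -1.14 (size-factor scale). The liver gene Apoa1, too low to be tested, had all KO libraries below all controls on both scales. Their part in the results for the peptide genes was not tested.

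Ostn stood out among the genes around the peptides and receptors. It encodes osteocrin, a secreted protein that binds NPR3 and is known to limit clearance of natriuretic peptides. It was on a list of 6 genes for peptide breakdown and competing ligands that was drawn up by function. Ostn was at 2.33, 2.06 and 2.45 FPKM in Tfam KO replicates 1, 2 and 3, from 37, 36 and 52 reads. It was listed at 0 in all 3 controls, where a count of 0 allows up to 0.131 to 0.191 FPKM. Its level was at least 11.9-fold higher in KO hearts as deposited and at least 9.18-fold higher with size factors, taking the highest of these limits per library as the control level.

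Ostn passed the filter on low values only through the KO libraries, so its values are given as a description and no p is given. Its transcript level remained well below that of Npr3, and few reads stood behind it. The other 4 tested genes of the list did not pass on either scale. They were Ide and Mme, proteases that can degrade natriuretic peptides, with log2 fold changes of 0.48 and 0.39 as deposited and both 0.17 with size factors, and Dpp4 and Ece1.

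Genes downstream of cyclic GMP that could be tested did not pass. Of 18 effectors and phosphodiesterases, 9 were tested, and 0 were higher and 0 lower by limma on either scale. The other 9 were too low to be tested. Pde1a and the untested Abcc4, named after their values were seen, had all KO libraries above all controls on both scales. No gene of the list had all KO libraries below all controls. Of all tested genes, 25.6% lay above in this way as deposited and 12.5% with size factors. At an unadjusted p of 0.05 there were 2 as deposited and 1 with size factors, and limma-voom called 0. Their median log2 fold change, 0.26 on the deposited and 0.015 on the size-factor scale, stood beside 0.28 and 0.01 over all tested genes. The most abundant was Vasp, a substrate of cyclic GMP-dependent kinase, at 23.7 ± 2.01 FPKM in KO hearts and 17.9 ± 1.505 in controls (adjusted p = 0.251, and 0.816 with size factors). Of 9 other guanylyl cyclase genes, 2 were tested and 0 passed by limma on either scale or by limma-voom (1 had an unadjusted p under 0.05 on each). Gucy1b3, a subunit of the soluble cyclase, had a log2 fold change of 0.60 (adjusted p = 0.0850) as deposited and 0.29 (adjusted p = 0.181) with size factors. The membrane cyclase genes Gucy2c, Gucy2d and Gucy2f were listed at 0 in all 6 libraries. Of 8 other proprotein convertase genes, 4 were tested and 0 passed by limma on either scale or by limma-voom (1 as deposited and 0 with size factors had an unadjusted p under 0.05), the most abundant being Mbtps1 (log2 fold change 0.06 as deposited and -0.25 with size factors). Pcsk6, a protease that activates corin, was at 1.26 ± 0.0172 FPKM in KO hearts and 1.04 ± 0.0302 in controls, with overlapping groups on the size-factor scale (adjusted p = 0.609 as deposited and 0.954 with size factors). Pcsk6, Ide, Mme, Dpp4 and Ece1 were singled out after their values were seen.

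**Figure D4:**
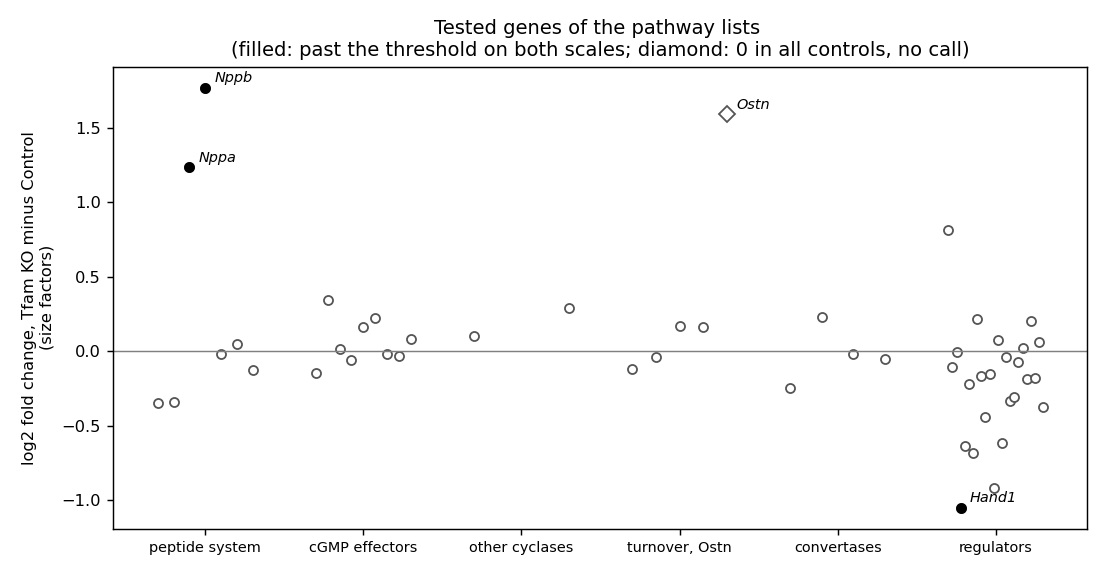
Log2 fold change with size factors (Tfam KO minus Control) of each tested gene of the peptide system and of 5 lists around it, filled where the gene passed on both scales. Nppa and Nppb are the filled points above 0, Hand1 is the filled point below 0, and the open diamond is Ostn, at 0 in all controls.

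In a chosen list of transcription factors known to act on Nppa or Nppb, no gene was higher on both scales. All 24 genes of that list were tested, and 0 were higher and 1 lower on both scales by limma, 6 passed by limma-voom, and 5 as deposited and 9 with size factors had an unadjusted p under 0.05. The 1 was Hand1, at 7.02 ± 1.41 FPKM in KO hearts and 12.6 ± 2.58 in controls (SD, n = 3), with a log2 fold change of -1.05 with size factors (limma adjusted p = 0.000635). The list's median was 0.12 as deposited and -0.17 with size factors, below the medians over all tested genes. Whether the list's counts at an unadjusted p or by limma-voom exceeded the background of all genes was not tested. The following 3 were named after their values were seen because they passed by limma on 1 scale, and all 3 also passed by limma-voom. Egr1, an immediate early gene, was higher as deposited but did not pass with size factors (log2 fold change 1.11, adjusted p = 8.49e-05, and 0.81, adjusted p = 0.0948, with size factors). Nkx2-5, whose locus carries the Cre in both groups, and Jun were lower with size factors but did not pass as deposited (log2 fold changes -0.92 and -0.68, adjusted p = 0.0395 and 0.0396, and -0.61 and -0.37 as deposited). Gata4, a known activator of both peptide genes and also named afterwards, was at 0.21 and -0.11 in log2 fold change on the 2 scales, with no call on either.

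Nppb and Nppa lie in tandem on chromosome 4, on the plus strand, with starts 14.9 kb apart. In GENCODE vM21 on GRCm38, Nppb spans chr4:147985788-147987205 and Nppa spans chr4:148000722-148002079. The files were made on mm9, per the submitters' processing notes, and hold no positions, so these coordinates describe the genes and not the reads. Protein-coding genes close by include Fv1, Mfn2, Plod1 and 2510039O18Rik before Nppb and Clcn6, Agtrap and Draxin after Nppa. Values were found for 6 of these (Draxin was not listed under that symbol), and 0 of the 6 passed by limma on either scale or by limma-voom. As deposited Mfn2, Plod1 and Agtrap had an unadjusted p under 0.05, and with size factors 0 did. With size factors their log2 fold changes lay between 0.025 (Fv1) and 0.25 (Agtrap), against 1.77 for Nppb and 1.24 for Nppa. Clcn6, the nearest gene after Nppa, was at 0.23. A protein-coding gene between Clcn6 and Agtrap is not reported here. Gm13054, an antisense gene, overlaps Nppa and was not listed. Whether the counting used strand was not given in the sources used here, and without strand its reads and those of Nppa cannot be told apart.

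**Figure D5:**
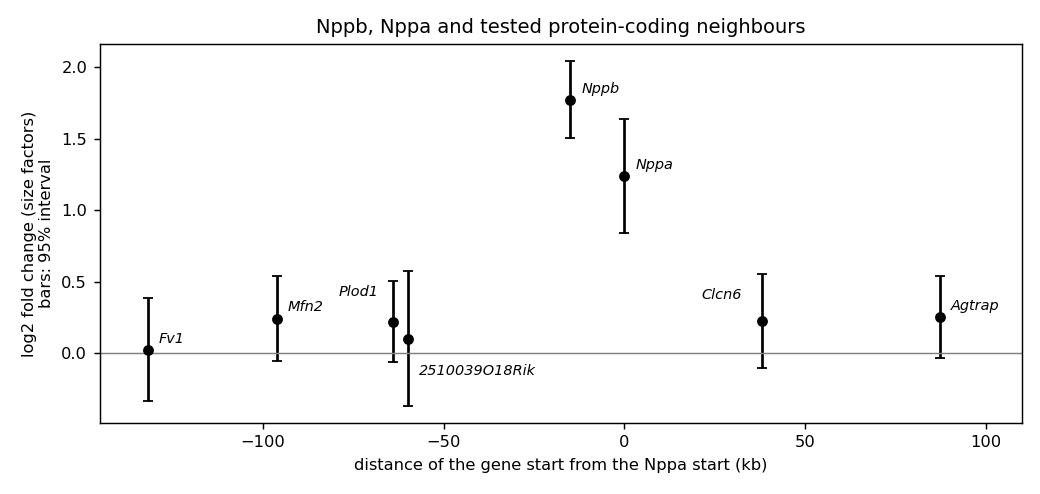
Log2 fold change with size factors (Tfam KO minus Control, bars for 95% intervals) of Nppb, Nppa and 6 neighbouring protein-coding genes, by distance of each gene's start from the Nppa start. The peptide pair lies at 1.77 and 1.24 and the neighbours shown, which leave out a gene between Clcn6 and Agtrap, lie between 0.025 and 0.25.

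Since both peptide genes rose, the sequence before their starts is shown (RefSeq, GRCm38.p6, plus strand), with capitals marking the GATA factor motif TGATAA, its other form AGATAA, and the TATA box motif TATAAAA. For Nppa these are the 250 bases before the start, chr4:148000472-148000721. For Nppb, whose RefSeq start lies inside the first exon of a longer transcript, only short stretches around the matches are printed, chr4:147985800-147985826 and chr4:147985859-147985885.
Nppa: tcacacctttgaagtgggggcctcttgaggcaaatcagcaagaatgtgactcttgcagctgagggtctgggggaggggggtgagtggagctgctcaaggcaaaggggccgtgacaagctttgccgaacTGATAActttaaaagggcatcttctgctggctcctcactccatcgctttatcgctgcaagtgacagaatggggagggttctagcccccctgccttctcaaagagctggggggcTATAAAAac
Nppb, GATA stretch: gcagcTGATAAatcagAGATAAcccca
Nppb, TATA stretch: tcagccccagTATAAAAggcagaggca
In the 250 bases before the start, on both strands, TGATAA was found once in each gene and in 7.94% of the 32851 listed promoters, and AGATAA once in Nppb and in 9.99% of promoters. TATAAAA was found once in each, at bases -9 to -3 from the start in Nppa and -31 to -25 in Nppb. It was in 4.98% of promoters, and a GATA match together with it in 493 promoters. AAGTG, a core bound by NKX2-5, had 2 matches in Nppa and 0 in Nppb, and 40.7% of promoters held it. CATTCC, bound by TEAD factors, had 1 match in Nppb and 0 in Nppa (12.6% of promoters). TGATGNAA, a form of the element bound by ATF4 with C/EBP factors, and TGANTCA, the AP-1 element, had 0 matches in either gene in this window (3.45% and 6.75% of promoters). These letters are a description of the window and show no binding.

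The genes whose profiles were most like those of the peptides were found by the root mean square difference of centred log2 values over the 6 libraries with size factors, among all tested genes. For Nppa they were Paqr3 (0.10), Eif3c (0.12), Ankrd1 (0.16), Eif2s2 (0.17) and Eprs (0.17). Eif3c and Eif2s2 encode translation initiation factors, Ankrd1 a muscle ankyrin repeat protein, and Eprs a tRNA synthetase. On the deposited scale 4 of these stayed among the nearest 5 and Eprs was the 6th. For Nppb they were Sars (0.09), B4galnt2 (0.09), Ostn (0.12), Gars (0.14) and Slc25a33 (0.14). Sars and Gars encode tRNA synthetases and Slc25a33 a mitochondrial carrier. On the deposited scale Sars and Gars stayed among the nearest 5, and Slc25a33, B4galnt2 and Ostn were 6th, 8th and 25th. Among the tested genes Nppb was the 135th nearest to Nppa and Nppa the 60th nearest to Nppb (0.35). Over 6 libraries in 2 groups, any gene with a like rise in log2(FPKM + 1) comes out close. The order thus says little beyond the size of that rise and the spread of the pools. That scale understates changes of low genes. B4galnt2 had a mean of 0.152 FPKM in controls and 3.48 in KO hearts, and Slc25a33 had 1.47 and 9.44. B4galnt2, Ostn and Paqr3 had control means under 1 FPKM and passed the filter only through the KO libraries.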

How the data were processed

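The authors deposited 1 table per library with log2 values, log2(FPKM + 1), for 23284 gene symbols. The FPKM unit came from the tables' names and the log base from the values. Per the submitters' processing notes, CASAVA 1.8.2, TopHat2 2.0.7, HTSeq 0.5.3 and build mm9 were used, and what each did is not stated there. Annotation, strand setting and FPKM computation are not given in the sources used here. Values were turned back to FPKM, and whole reads were recovered for all 17876 genes above 0, up to a common factor per gene (tolerance 1e-05 of a read for low counts). Groups were compared with limma 3.58.1 (R 4.3.3), a group term, a variance trend, a pseudocount of 1 and a filter at a mean of 1 FPKM, as deposited and with median-of-ratios size factors. Fold changes on the log2(FPKM + 1) scale understate changes of low genes. Ratios were tested by exact permutation. The sequence tables held no proteins, so none are printed. Some sequence and gene results are not reported here. Replicates were pools of 5 hearts each. Members and lists were chosen with earlier results of these data known. Named were all 8 members, the list genes past the threshold on both scales (else the most abundant of a pathway list), the 2 most abundant of the muscle and endothelial marker lists, chromosomal neighbours and the 5 nearest profiles. Alternatives were another pseudocount, no filter, no trend, leaving out each library, the replicate number as a block, and limma-voom on recovered reads with TMM factors.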

Additional observations from a re-analysis of the deposited data

How the results depend on the processing

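Nppb kept its direction and its call under all 20 alternatives run, and Nppa under 19. As deposited with no filter on low values, Nppa passed only narrowly (limma adjusted p = 0.0485). The exception was the fit of all genes above 0 with size factors, chosen after the data were seen, where Nppa had a log2 fold change of 1.24 (limma adjusted p = 0.097) and 1 member was higher. Leaving out each library gave 1.37 to 1.67 for Nppa, 1.98 to 2.22 for Nppb, 0.11 to 0.30 for Npr1, 0.24 to 0.38 for Npr2, -0.055 to 0.36 for Npr3, -0.19 to 0.036 for Corin and -0.33 to 0.14 for Furin as deposited. With size factors the ranges were 1.16 to 1.38 for Nppa and 1.71 to 1.84 for Nppb, with every call kept, and -0.44 to -0.20 for Corin and -0.60 to -0.19 for Furin. Npr1 turned to -0.015 with size factors, with or without a replicate block or the filter, and to -0.055 with limma-voom. Leaving out libraries with size factors gave Npr1 -0.087 and -0.023 (without Tfam KO replicates 1 and 2) and -0.049 and -0.028 (without Control replicates 2 and 3). Npr3 turned to -0.13 with size factors, with or without the block or the filter, and to -0.14 with limma-voom. Leaving out libraries with size factors gave Npr3 -0.053, -0.076 and -0.25 (without Tfam KO replicates 1, 2 and 3) and -0.20, -0.085 and -0.10 (without Control replicates 1, 2 and 3). Over all genes, 671 were higher and 125 lower as deposited. The numbers were 224 and 270 with size factors, 145 and 22 with no filter on low values, 169 and 143 with no filter and size factors, and 288 and 454 with limma-voom on reads. Leaving out each library gave 234 to 2273 higher (2273 without Tfam KO replicate 2) and 52 to 112 lower as deposited. With size factors 212, 159 and 200 were higher without Tfam KO replicates 1, 2 and 3, and 161, 218 and 138 without Control replicates 1, 2 and 3. There 267, 203 and 157 were lower without Tfam KO replicates 1, 2 and 3, and 147, 338 and 118 without Control replicates 1, 2 and 3. The replicate number as a block gave 2083 and 241 as deposited and 287 and 394 with size factors, and changed no call of a member. The deviations of same-numbered libraries had correlations of 0.36, 0.07 and 0.16, and those of differently numbered libraries ran from -0.39 to 0.25. These values do not exclude a pairing by number. The numbers were not taken to pair the samples because the labels do not state it. The causes of these shifts were not tested. Npr1, Npr2, Corin and Furin rested on 89 to 976 reads per library, which limits the precision of the lowest of them.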
